A study of Mus musculus with 9 samples.

Results

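The brain transcriptome of mice labelled Tfap2a+/- was compared with that of wild-type mice across all genes. The comparison used 6 of the 9 libraries of the series, 3 titled Tfap2a and 3 titled B6N, which the series' design text lists as WT. All came from adult male mice aged 3 to 4 months, with 1 library per sample of brain tissue, and the Tfap2a+/- mice carried no other allele or treatment that the labels name. The part of the brain taken, the construction of the Tfap2a allele and the breeding of either group are not given in the sources used here. The labels do not say that the libraries of a group came from separate animals, and p-values cover the spread among the libraries alone, part or all of which could be technical.

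Tfap2a encodes AP-2 alpha, a transcription factor that binds DNA as a dimer at GC-rich palindromes. It is best known from the embryo, where it acts in the neural crest, the skin and the face, and where the related AP-2 beta, encoded by Tfap2b, acts in overlapping tissues. CITED proteins serve AP-2 factors as coactivators, and Kctd1 is known as an AP-2 repressor.

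Counts in genes ran from 21946800 to 27051802 per wild-type library and from 22496880 to 28517579 per Tfap2a+/- library. Levels are in CPM, each count relative to its library's scaled total, and a library without any count of a gene may still hold 0.105 to 0.137 CPM of it, the level of 3 counts. This floor covers counting error only. Tfap2a itself (ENSMUSG00000021359.16, chromosome 13, 40715302 to 40738376, GRCm38.p6) lay not far above the floor, at 0.61, 0.26 and 0.73 CPM in wild type (given here and below in the order of libraries 1, 2 and 3) against 0.45, 0.22 and 0.46 CPM in Tfap2a+/-. The groups overlapped, and the counts do not settle whether 1 copy was lost. Kctd1 was at 102, 52.7 and 83.4 CPM in wild type and at 100, 116 and 120 CPM in Tfap2a+/-. Cited1, one of the coactivators, was below every wild-type library in each Tfap2a+/- library, at 1.36, 2.07 and 1.39 against 1.34, 0.71 and 0.97 CPM (log2 fold -0.67 ± 0.42 SE, edgeR adjusted p = 0.999). It was the single member of the 11 tested genes of the AP-2 list whose groups did not overlap.

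The brain label was checked against synaptic vesicle genes, whose 33 members summed to at least 17430 CPM in each of the 6 libraries. The libraries differed in markers of brain regions and cell types. The striatal score, a library's mean log2 deviation over 18 marker genes of the striatum, was -1.51, 0.29 and -0.81 in wild-type libraries 1 to 3 and 1.90, 1.68 and 0.07 in Tfap2a+/- libraries 1 to 3. Wild-type library 2 thus lay above Tfap2a+/- library 3. All 18 striatal members had a higher mean in Tfap2a+/- (48.2% of all genes tested did), 7 without overlap, and their median log2 fold was 2.03 against -0.0064 over all genes tested. The 12 thalamic markers had a lower mean, 4 of them without overlap (median -0.71), and the 16 choroid plexus markers a lower mean with overlap (median -1.69, and 1.52 without wild-type library 2). In bulk tissue, more cells of a type and more RNA per cell cannot be told apart. Each fold below was therefore also computed with the striatal score as an added term over all 9 libraries. For the 18 striatal markers themselves, a median fold near 0 with that term (-0.06) is set by construction, since the score is their mean.

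Of 17355 genes tested, none passed an adjusted p of 0.05 in edgeR (0%), and the adjusted p-values began at 0.113. An unadjusted p under 0.05 was found for 666 genes (3.84%), 374 of them higher (2.15%) and 292 lower (1.68%) in Tfap2a+/-. With the striatal score as a term it was found for 1577 genes (9.09%), where again 0 passed adjustment. Where no gene differs, the threshold itself gives a share of 0.05, so the first share was under it and the second above. DESeq2, run as an alternative, called 30 genes (0.173%), 21 higher (0.121%) and 9 lower (0.0519%). In simulated counts for these 17355 genes with the same numbers of libraries, edgeR recovered 16% of genes changed by 1.5-fold. It recovered 60% of those changed by 2-fold and 90% of those changed by 4-fold. The changed genes had means above 1 CPM, and each gene was drawn on its own, without the libraries' shared differences in regional markers. Calls were thus possible at this depth for such genes, and recovery of scarcer genes was not tested. DESeq2 called 29 unchanged genes in the same simulation, against 4 by edgeR. The genes below are described by their level in each library, and "higher" and "lower" refer to the groups' means or libraries, not to changes that passed the edgeR test.

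Every Tfap2a+/- library lay above every wild-type library for 842 genes (4.85%) and below every one for 749 (4.32%), together 9.17% of the genes tested. For a gene that does not differ, 3 against 3 libraries separate with a probability of 0.1. The 9.17% is no larger, and a lack of overlap is thus by itself no sign of a difference. Counts without overlap in the lists below stand beside the 9.17%. Counts of higher and lower means stand beside 48.2% and 51.8% of the genes tested. With a fold of at least 1.5 there were 245 higher genes (1.41%) and 173 lower genes (0.997%). At 2-fold or more there were 106 higher and 72 lower. Genes past 1.5-fold were mostly scarce: their median level was 0.92 CPM on the higher side and 0.87 CPM on the lower side, against 15.2 CPM over all genes tested. Protein-coding genes made up 55.1% of the higher and 69.9% of the lower set, against 85% of all genes. With the striatal score as a term, 97.6% of the higher and 98.8% of the lower genes kept their direction, and 64.5% and 70.5% kept at least 75% of their log2 fold. Over all genes tested, which were not chosen by fold or overlap, the shares were 72.5% and 60.1%. The choice of the 2 sets by fold and no overlap in the same libraries favours a kept direction. Their shares are therefore no separate support.

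**Figure D1:**
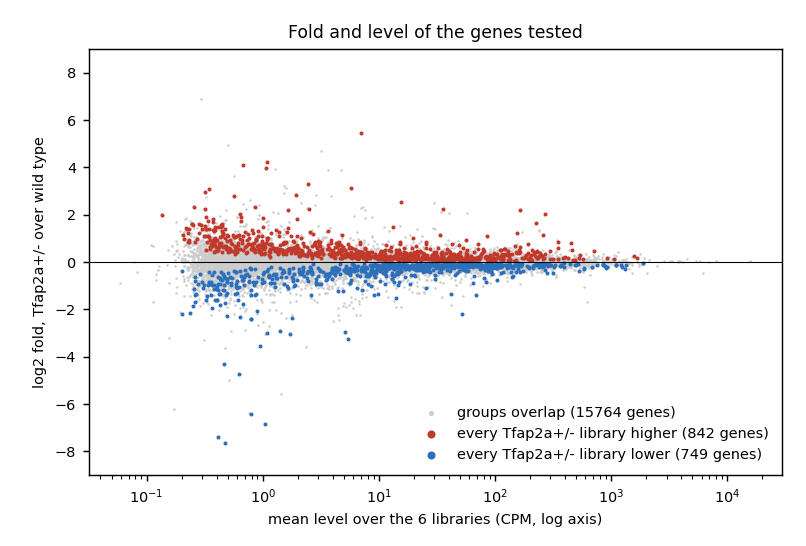
Each point is 1 of the 17355 genes tested, with the mean level over the 6 libraries on the x axis (CPM, log axis) and the log2 fold of Tfap2a+/- over wild type on the y axis. Red points are the 842 genes with every Tfap2a+/- library higher, blue points the 749 with every one lower, and grey points the genes whose groups overlap. Folds past 1.5 lie mostly at low levels, where the 2 sets have medians of 0.92 and 0.87 CPM.

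The 30 genes of smallest p among those whose groups did not overlap comprised 22 higher and 8 lower genes. Of these, 23 were protein coding and 2 belonged to the striatal list. All 30 kept their direction with the striatal score as a term, and 22 kept at least 75% of their log2 fold with the score. Their choice by small p and no overlap in the same libraries favours a kept direction. DESeq2 called 23 of them. The promoters of 4 of the 30 genes are shown first, since AP-2 factors bind promoters and these genes are described in most detail below: 2610035D17Rik and Gabra5 were lower and Scn4b and Clspn higher in every Tfap2a+/- library. The sequences are RefSeq's on GRCm38.p6, from 250 bases before to 50 bases after the start, 5′ to 3′ on the gene's strand. Capitals mark matches to the AP-2 consensus, which is GCCNNNGGC or the same with 1 more N in the middle. Both forms read the same on either strand, and a promoter can hold both.
2610035D17Rik (chr11:113201789-113202088, minus strand): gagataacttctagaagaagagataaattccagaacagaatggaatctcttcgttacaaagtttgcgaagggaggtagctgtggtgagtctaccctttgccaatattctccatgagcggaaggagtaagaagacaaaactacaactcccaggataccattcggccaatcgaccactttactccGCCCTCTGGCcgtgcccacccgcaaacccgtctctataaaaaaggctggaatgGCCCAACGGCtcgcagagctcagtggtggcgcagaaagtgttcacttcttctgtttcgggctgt
Gabra5 (chr7:57510010-57510309, minus strand): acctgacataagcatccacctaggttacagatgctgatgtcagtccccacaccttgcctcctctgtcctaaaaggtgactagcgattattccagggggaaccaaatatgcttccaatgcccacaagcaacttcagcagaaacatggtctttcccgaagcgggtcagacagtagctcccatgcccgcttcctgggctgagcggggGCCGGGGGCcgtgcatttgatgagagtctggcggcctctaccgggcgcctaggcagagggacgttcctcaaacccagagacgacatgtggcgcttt
Scn4b (chr9:45138374-45138673, plus strand): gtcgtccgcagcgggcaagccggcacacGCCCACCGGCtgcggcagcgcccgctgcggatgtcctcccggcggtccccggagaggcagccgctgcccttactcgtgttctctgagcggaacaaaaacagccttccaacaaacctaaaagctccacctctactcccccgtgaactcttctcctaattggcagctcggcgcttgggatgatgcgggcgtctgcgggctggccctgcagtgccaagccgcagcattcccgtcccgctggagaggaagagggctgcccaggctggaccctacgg
Clspn (chr4:126556730-126557029, plus strand): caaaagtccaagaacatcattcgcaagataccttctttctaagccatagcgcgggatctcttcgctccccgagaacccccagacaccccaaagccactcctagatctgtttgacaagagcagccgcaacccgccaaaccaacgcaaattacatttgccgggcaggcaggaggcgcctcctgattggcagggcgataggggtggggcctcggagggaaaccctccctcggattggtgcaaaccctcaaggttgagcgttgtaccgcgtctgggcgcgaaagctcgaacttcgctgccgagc

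The promoter of 2610035D17Rik holds 2 matches to the longer form, that of Scn4b 1 match to the longer form, and that of Gabra5 1 match to GCCNNNGGC. The Clspn window holds neither. A match is a description of the letters and not a bound site. Either form occurred in 39.1% of the 15833 promoters of genes tested and in 27.0% of all 32851 promoters in the table. It occurred in 26.5% of 166 promoters of the higher genes past 1.5-fold (122 of 245 genes had a promoter in the table) and in 36.8% of 133 promoters of the lower ones (109 of 173 genes). Among the 30 genes of smallest p it was in 37.0% of 27 promoters. The motif was thus no more frequent in these sets than over all genes tested.

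The smallest p of the comparison belonged to 2610035D17Rik, a long intergenic non-coding RNA on chromosome 11 (ENSMUSG00000087259.7, 113043895 to 113201838). Its level was 13.7, 12.2 and 13.5 CPM in wild type and 5.41, 5.52 and 3.87 CPM in Tfap2a+/-. The lowest wild-type library was 2.21 times the highest Tfap2a+/- library. Its log2 fold came to -1.41 ± 0.15 (SE; 95% interval -1.75 to -1.07), at an edgeR adjusted p of 0.113 and a DESeq2 adjusted p of 4.87e-13. With the striatal score as a term it was -1.62. Leaving out 1 library at a time kept it between -1.50 and -1.26.

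**Figure D2:**
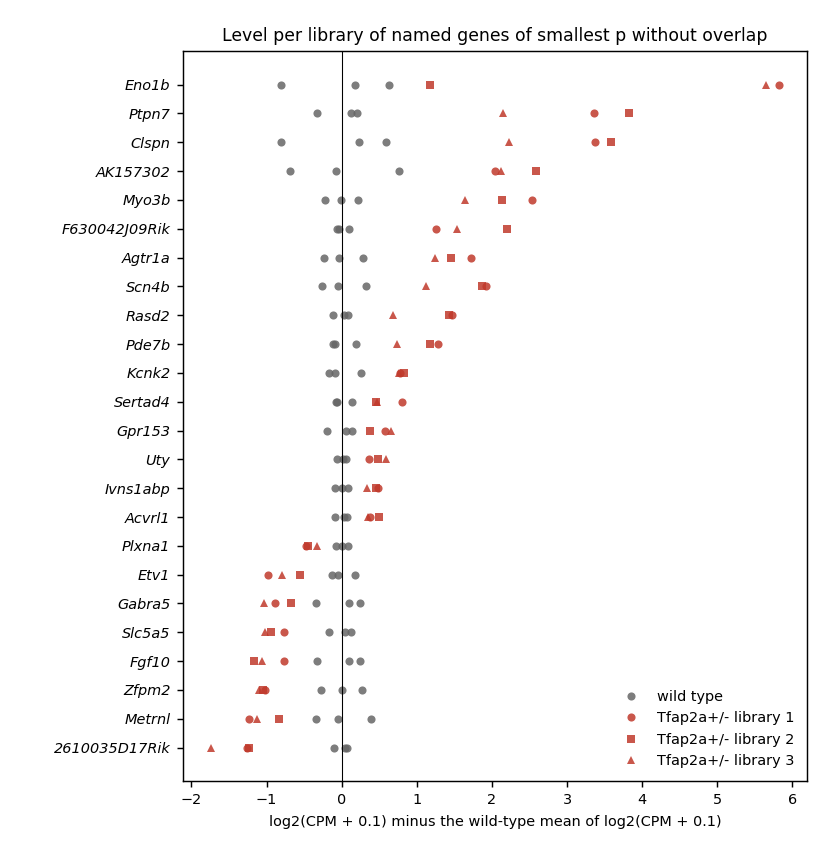
For 24 of the 30 genes of smallest p without overlap, those named in the text, the x axis gives the level in each of the 6 libraries as log2(CPM + 0.1) minus the wild-type mean on that scale. Grey circles are the wild-type libraries and red symbols the Tfap2a+/- libraries, by number. Tfap2a+/- library 2 of Eno1b lies near the wild-type libraries, while libraries 1 and 3 lie far above, and for 2610035D17Rik all 3 lie together below.

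Among genes of membrane excitability, a potassium channel, a sodium channel subunit and a GABA receptor subunit stood among the 30. Kcnk2 (chromosome 1, 189207930 to 189402273) encodes TREK-1, a leak potassium channel gated by stretch and lipids. It was at 46.8, 49.3 and 62.6 CPM in wild type and at 90.2, 93.3 and 88.7 CPM in Tfap2a+/-. The 3 Tfap2a+/- values lay close together, well above the highest wild-type library, with a log2 fold of 0.78 ± 0.11 (SE) and 0.69 with the striatal score (edgeR adjusted p = 0.317, DESeq2 1.18e-05). Its relative Kcnk10, which encodes TREK-2, lay the other way, at 8.50, 8.88 and 11.2 against 6.47, 7.80 and 8.02 CPM. Over the 10 tested K2P potassium channels these were the 2 members without overlap, and the list's median was 0.10. Without Tfap2a+/- library 3 it was -0.039, without library 1 of that group 0.18, and with the striatal score 0.38.

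Scn4b (chromosome 9, 45138395 to 45154152) encodes the beta-4 sodium channel subunit, known for the resurgent current of fast-firing and striatal neurons. Its levels of 134, 89.0 and 103 CPM in wild type and 407, 390 and 234 CPM in Tfap2a+/- left a gap between the groups. The log2 fold of 1.66 was hardly altered by the striatal score (1.62, edgeR adjusted p without it = 0.317). Scn4b is itself 1 of the 18 genes from which the score is made. Fgf14, which encodes an intracellular modulator of sodium channels, was at 53.8, 49.1 and 50.8 against 57.0, 57.0 and 68.4 CPM. Of 13 tested sodium channel genes 11 had a higher mean, 2 of them without overlap, with a median of 0.12 that was 0.020 without wild-type library 2 and 0.27 with the striatal score.

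Gabra5 (chromosome 7, 57407672 to 57510059) encodes the alpha-5 subunit of GABA-A receptors, which carry tonic inhibition outside synapses and are abundant in the hippocampus. It was at 64.6, 96.7 and 87.3 CPM in wild type and at 44.1, 51.4 and 39.9 CPM in Tfap2a+/-. No Tfap2a+/- library reached the wild-type range (log2 fold -0.88 ± 0.16 SE, -1.28 with the striatal score, edgeR adjusted p = 0.735, DESeq2 0.00287). The other 13 tested GABA-A subunits overlapped, and 11 of all 14 had a higher mean. Hippocampal markers lay the same way on average: 11 of 13 had lower means, and their median was -1.27, or -0.55 without wild-type library 3. Their score overlapped, at -0.83, 0.65 and 1.11 in wild type and -0.42, -0.48 and -0.86 in Tfap2a+/-. Wild-type library 1 thus lay below Tfap2a+/- libraries 1 and 2. The part of these markers in the Gabra5 values was not tested.

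Further channel genes without overlap lay outside the 30 genes of smallest p. Kcnip2, a partner of A-type potassium channels, was at 113, 122 and 113 against 165, 174 and 211 CPM. Cacna2d3, an auxiliary calcium channel subunit, was at 90.7, 89.9 and 93.8 against 134, 129 and 131 CPM, so that the values within each group differed by little. Its log2 fold was 0.52 ± 0.17 (SE, edgeR adjusted p = 0.999) and 0.39 with the striatal score. Kcnmb2, a beta subunit of BK channels, was lower at 4.18, 4.44 and 3.90 against 2.05, 1.65 and 2.86 CPM. Grik4, a kainate receptor subunit, was lower at 28.1, 50.4 and 29.2 against 23.8, 25.4 and 25.5 CPM and the only 1 of 17 ionotropic glutamate receptor genes without overlap. In the voltage-gated potassium list 23 of 37 tested genes had a higher mean, 2 without overlap, and in the calcium channel list 15 of 21, 1 without overlap.

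Transport and cytoskeletal genes formed a further part of the 30. Slc5a5 (chromosome 8, 70882889 to 70892757) encodes the sodium-iodide symporter, known from the thyroid. It was lower in every library, at 26.3, 25.0 and 21.6 CPM in wild type and 14.2, 12.6 and 11.8 CPM in Tfap2a+/- (log2 fold -0.92 ± 0.14 SE, -1.03 with the striatal score, edgeR adjusted p = 0.326, DESeq2 6.52e-05). Myo3b, which encodes a class III myosin of actin protrusions, was at 0.85, 0.72 and 1.0 against 5.41, 4.05 and 2.86 CPM. Its log2 fold was 2.26 ± 0.33 (SE) and 1.63 with the striatal score (edgeR adjusted p = 0.317). All 3 Tfap2a+/- libraries lay above the wild-type libraries, with Tfap2a+/- library 3 the lowest of the 3.

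Clspn (chromosome 4, 126556935 to 126593903) encodes claspin, the adaptor through which the kinase ATR activates CHK1 when replication stalls. It was at 0.19, 0.49 and 0.66 CPM in wild type and at 5.13, 5.97 and 2.26 CPM in Tfap2a+/-. The log2 fold was 3.29 ± 0.49 (SE), and 2.13 with the striatal score (edgeR adjusted p = 0.317, DESeq2 9.58e-07). The rest of the replication list did not share this: 16 of its 29 tested genes had a higher mean, the median was 0.010 (from -0.054 without Tfap2a+/- library 1 to 0.038 without library 3 of that group), and Clspn was the only 1 that was higher without overlap. Cdc6, which loads the replicative helicase, was lower at 0.52, 0.57 and 0.54 against 0.38, 0.27 and 0.18 CPM. The checkpoint kinase gene Chek2 and the sliding clamp gene Pcna were lower in every library too, at 2.02, 1.32 and 1.24 against 1.03, 0.76 and 0.65 CPM and at 26.5, 29.0 and 28.4 against 25.9, 26.1 and 23.3 CPM. Neither passed the edgeR test (adjusted p = 0.999 for both).

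Ptpn7, a tyrosine phosphatase of blood-forming cells that acts on MAP kinases, had 0.14, 0.075 and 0.15 CPM in wild type and 2.16, 3.03 and 0.88 CPM in Tfap2a+/-. The wild-type values are near the floor, and the log2 fold of 3.99 ± 0.77 (SE) became 2.32 with the striatal score (edgeR adjusted p = 0.772). Markers of microglia, the immune cells of the brain, lay higher on average in 10 of 12 tested genes with a median of 0.12, which turned to -0.13 with the striatal score and to -0.0065 without Tfap2a+/- library 2. Agtr1a, the angiotensin II receptor type 1a, was at 0.28, 0.38 and 0.23 against 1.2, 0.98 and 0.83 CPM. Acvrl1, which encodes the endothelial receptor ALK1, was at 14.2, 13.1 and 14.7 against 18.2, 19.7 and 17.8 CPM. For comparison, 10 of 12 endothelial markers had a higher mean, none of them without overlap, with a median of 0.12.

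Signalling and transcription genes made up 5 of the 8 lower genes among the 30. Etv1 (chromosome 12, 38779380 to 38870484), an ETS transcription factor of layer 5 cortical neurons that acts downstream of FGF signals, was at 126, 120 and 148 CPM in wild type and 66.0, 89.1 and 75.1 CPM in Tfap2a+/-. Fgf10, a ligand of that family, was at 12.1, 8.96 and 13.4 against 6.61, 4.99 and 5.39 CPM. The log2 folds were -0.77 ± 0.13 (SE) for Etv1 and -1.02 ± 0.17 (SE) for Fgf10 (edgeR adjusted p = 0.518 for both), and they were -0.67 and -0.95 with the striatal score. Fgf7 lay below wild type in every library at the edge of detection, at 0.61, 0.53 and 0.46 against 0.45, 0.18 and 0.32 CPM. Of 17 tested FGF ligands and receptors 12 had a lower mean. Their median of -0.13 ran from -0.29 without Tfap2a+/- library 1 to -0.035 without wild-type library 2. Dusp5, a phosphatase induced by ERK, overlapped, at 10.8, 16.6 and 23.6 against 10.6, 6.42 and 11.1 CPM, and the list of ERK feedback and ETS factors had 7 members on either side.

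Zfpm2, which encodes the GATA cofactor FOG2, was at 28.1, 34.0 and 41.3 CPM in wild type and at 16.7, 16.5 and 15.8 CPM in Tfap2a+/-. Metrnl, a secreted relative of the neurotrophic factor meteorin, was at 6.81, 11.4 and 8.38 against 3.63, 4.81 and 3.92 CPM. Plxna1, a semaphorin receptor, was at 165, 185 and 175 against 125, 128 and 139 CPM. All 3 were lower in every library, by log2 folds of -1.08 ± 0.24, -1.11 ± 0.23 and -0.42 ± 0.09 (SE; edgeR adjusted p = 0.930, 0.812 and 0.812), and with the striatal score by -0.91, -1.43 and -0.36. The semaphorin coreceptor Nrp1 overlapped, with 29.3, 59.6 and 49.2 against 29.5, 23 and 22.0 CPM, and so did the repulsive guidance ligand gene Slit1, with 61.7, 131 and 115 against 73.9, 62.1 and 44.8 CPM. Over the axon guidance list 28 of 47 tested genes had a lower mean. Without overlap were 3 higher and 3 lower genes (12.8%, against 9.17% over all genes). The list's median was -0.064 (0.069 without wild-type library 2, -0.15 without wild-type library 1 and -0.32 with the striatal score). On the higher side stood Sertad4, at 14.7, 14.5 and 16.8 against 26.8, 21 and 21.2 CPM, the orphan receptor gene Gpr153, at 23.2, 24.6 and 19.5 against 33.3, 29.1 and 35.2 CPM, and the kelch protein gene Ivns1abp, at 130, 123 and 139 against 183, 179 and 165 CPM.

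The retinoic acid and WNT lists held members on both sides. Rara, the alpha receptor for retinoic acid, was lower at 12.4, 21.3 and 14.6 against 10.6, 10.2 and 8.34 CPM, while Rarg was slightly higher at 9.86, 9.45 and 9.31 against 12, 10.3 and 11.4 CPM. Rxrg, a partner receptor and a striatal marker, was at 1.64, 8.51 and 3.17 against 35.4, 32.2 and 11.5 CPM, and its log2 fold of 2.56 became 0.62 with the striatal score. Rarb, also a striatal marker, had 1.40 and then -0.14. Both genes are in the score, which takes part of their folds by construction. In all, 11 of 18 tested genes of the retinoic acid list had a higher mean, 3 without overlap, and 1 was lower without overlap. The share without overlap was 22.2%, against 9.17% over all genes. Among WNT genes the ligand genes Wnt3 (3.99, 3.50 and 3.75 against 1.78, 1.2 and 1.24 CPM) and Wnt5b (2.11, 1.77 and 1.93 against 1.68, 0.89 and 1.11 CPM) were lower in every library. The secreted antagonist Sfrp1 (11.8, 11.5 and 9.38 against 20.1, 14.6 and 23.4 CPM) and the nuclear effector Tcf7 (4.70, 4.70 and 3.78 against 6.74, 7.75 and 5.90 CPM) were higher. The median over 51 WNT genes was 0.042 (-0.053 with the striatal score, -0.00019 without wild-type library 3, 0.082 with library 1 of that group left out). Of the 51, 4 were higher and 3 lower without overlap (13.7%, against 9.17% over all genes).

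Adenylyl cyclases make cAMP, and phosphodiesterases end cAMP and cGMP signals. Their joint list had 5 of 22 tested genes without overlap (22.7%, against 9.17% over all genes), all 5 of them phosphodiesterase genes, 4 higher and 1 lower. Pde10a, the phosphodiesterase of striatal projection neurons, was at 80.2, 142 and 100 CPM in wild type and 580, 517 and 204 CPM in Tfap2a+/-. Pde1b was at 137, 205 and 139 against 445, 407 and 206 CPM, where the nearest libraries of the groups almost met. Pde7b was at 50.3, 62.2 and 51.2 against 133, 123 and 90.9 CPM. The log2 fold went from 1.14 to 0.22 with the striatal score for Pde1b, from 1.08 to 0.57 for Pde7b, and from 2.01 to 0.48 for Pde10a, which is itself in the score. Pde8b differed in this: at 87.0, 79.3 and 96.3 against 109, 100 and 122 CPM, its log2 fold was 0.33 without and 0.40 with the score (edgeR adjusted p = 0.999). The lower one was Pde1a, at 354, 345 and 270 against 206, 261 and 242 CPM, with -0.45 ± 0.28 (SE) and -0.73 with the score (edgeR adjusted p = 0.999).

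Rasd2, which encodes the striatal GTP-binding protein Rhes and is 1 of the genes of the score, was at 98.5, 94.4 and 86 against 257, 250 and 149 CPM, with a log2 fold of 1.23 ± 0.22 (SE, edgeR adjusted p = 0.587) and 0.72 with the score. Regulators of G protein signalling showed both patterns. Rgs9, the striatal member and also in the score, overlapped at 9.53, 40.9 and 16.6 against 135, 118 and 25.4 CPM, and its fold of 2.06 turned to -0.39 with the score. Rgs20, which ends signals of Gz and Gi proteins, was higher in each library at 28.4, 25.1 and 23.7 against 38.8, 43.4 and 33.9 CPM (0.59, and 0.34 with the score). Lrrk2, the kinase gene known from inherited Parkinson disease, was at 79.4, 85.3 and 87.0 against 103, 107 and 121 CPM, with 0.39 and 0.37.

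**Figure D3:**
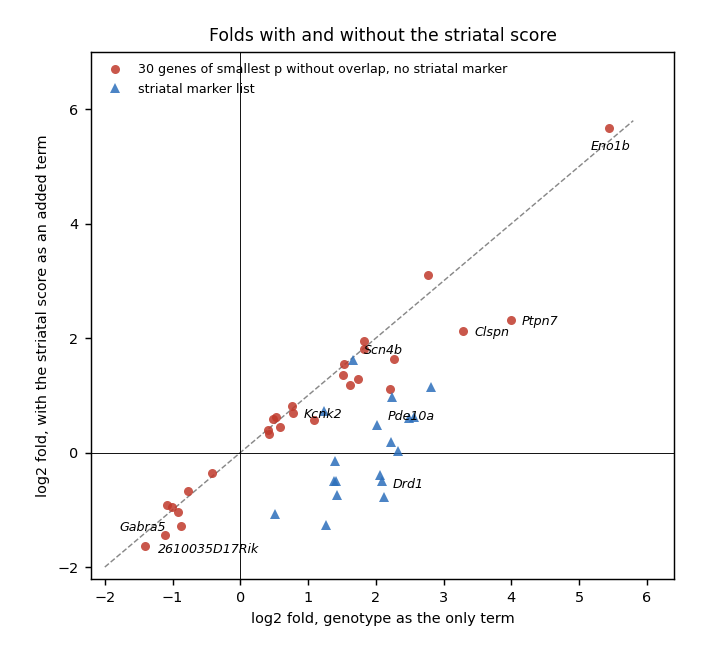
The x axis gives the log2 fold of Tfap2a+/- over wild type with genotype as the only term, and the y axis the fold with the striatal score of each library as an added term. Red circles are the genes of smallest p without overlap that are no striatal markers, blue triangles the 18 striatal markers, and the dashed line marks equal values. Most red circles lie near the line, as does Scn4b, while Clspn and Ptpn7 lie below it and most striatal markers far below, where a score that is their own mean places them by construction.

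The widest gaps on the lower side included those of the transcription factor genes Shox2 and Lhx9, at low levels and with unequal Tfap2a+/- libraries. They also included those of 2610035D17Rik and Zfpm2, described above, whose Tfap2a+/- libraries were more even. Shox2, a homeobox gene of the thalamus and its surroundings, was at 10.4, 9.07 and 10.2 CPM in wild type and at 2.33, 0.49 and 0.046 CPM in Tfap2a+/-. Lhx9, a homeobox gene of the thalamus and midbrain, was at 6.67, 8.02 and 12.7 against 2.77, 0.45 and 0.14 CPM. For both, Tfap2a+/- library 1 was the highest of its group, and the log2 folds of -3.27 ± 1.47 and -2.94 ± 1.26 (SE) had edgeR adjusted p = 0.999. Irx5, another homeobox gene, was at 0.28, 0.64 and 1.74 CPM in wild type and under the floor of 3 counts in each Tfap2a+/- library. Chrna6, a nicotinic receptor subunit of midbrain dopamine neurons, was at 1.27, 0.87 and 3.63 against 0.17, 0.18 and 0.37 CPM, with a log2 fold of -3.01 and -0.72 with the striatal score. The thalamic score was -0.45 to 0.37 in wild type and -1.05 to -0.14 in Tfap2a+/-, and its part in the Shox2 and Lhx9 values was not tested. Markers of hindbrain and midbrain monoamine cells had a lower mean in 5 of 5 tested genes, 1 without overlap, with a median of -1.03 that was -0.55 without wild-type library 2, -1.82 without Tfap2a+/- library 3 and 0.044 with the striatal score. They summed to 1.13, 6.78 and 7.84 CPM in wild type and 1.61, 1.65 and 1.66 CPM in Tfap2a+/-, so that wild-type library 1 was the lowest of all 6. Gata3, a transcription factor gene of that list, was at 0.047, 1.66 and 4.60 CPM in wild type and under the floor of 3 counts in each Tfap2a+/- library, as it was in wild-type library 1. The part of these markers in the Lhx9 and Chrna6 values was not tested. Olfml2b, which encodes an extracellular olfactomedin protein, had a narrower spread in Tfap2a+/-, at 9.53, 13.4 and 19.4 against 5.37, 5.84 and 5.39 CPM.

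Neuropeptide genes without overlap comprised Crh, which encodes corticotropin-releasing hormone, at 3.62, 1.96 and 2.70 against 4.83, 3.70 and 5.11 CPM, and 2 lower ones. Grp, the gene of gastrin-releasing peptide, was at 5.45, 6.70 and 6.53 against 1.44, 4.23 and 2.4 CPM. Cbln1, the gene of the synapse organiser cerebellin-1, was at 8.50, 9.18 and 12.2 against 6.4, 4.19 and 2.58 CPM. None of the 3 passed the edgeR test (adjusted p = 0.999 for each), and the list's 24 tested members had a median of 0.16. That median was -0.012 without Tfap2a+/- library 1 and -0.16 with the striatal score.

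Genes of energy metabolism differed by little, and the nuclear-encoded ones mostly in 1 direction. The glycolysis list of 22 genes gave 23 tested entries, since a gene symbol can match more than 1 identifier. Of the 23 entries 22 had a lower mean in Tfap2a+/-, against 51.8% of all genes, and 5 (21.7%) were lower without overlap. Pgam1, phosphoglycerate mutase, was at 116, 120 and 108 against 101, 101 and 103 CPM, a log2 fold of -0.17 ± 0.07 (SE, edgeR adjusted p = 0.999). Aldoa was at 1266, 1420 and 1249 against 1103, 1229 and 1116 CPM, and Gapdh, Pgk1 and Pkm, named because they complete the 5, had log2 folds of -0.10, -0.13 and -0.11. The list's median was -0.13 and ran from -0.15 to -0.070 over the fits that left out 1 library, the latter without wild-type library 2. It was -0.038 without the 3 libraries with high choroid plexus or hindbrain markers. Of 23 citric acid cycle genes 19 had a lower mean, 3 without overlap (median -0.062), among them the NADP-dependent dehydrogenase gene Idh2, at 27.8, 30.6 and 29.0 against 26.4, 25.5 and 20.4 CPM, and Sdha, a subunit gene of complex II (log2 fold -0.15). The 46 nuclear-encoded respiratory chain genes had 3 higher and 6 lower members without overlap (19.6%) and a median of -0.014 (0.0074 without Tfap2a+/- library 3). The 10 tested mitochondrially encoded genes lay the other way, with a higher mean for 9 and overlap for all. Their median was 0.055, and 0.0062 with the striatal score.

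Lists of protein quality control differed in direction, with small medians. Of 31 proteasome subunits 23 had a lower mean and 6 were lower without overlap (19.4%), led by the catalytic subunit gene Psmb5 at 22.2, 24.5 and 24.4 against 11.7, 20.7 and 16.4 CPM (log2 fold -0.54 ± 0.18 SE, edgeR adjusted p = 0.999). It had the lowest fold of the list, whose median was -0.048. Among 19 heat shock genes 15 had a lower mean, 3 without overlap (15.8%, against 9.17% over all genes). These included the inducible chaperone gene Hspa1a, at 5.31, 5.50 and 7.61 against 4.28, 4.37 and 5.16 CPM, and Hsp90aa1, at 903, 942 and 946 against 833, 831 and 847 CPM. Chaperones of the endoplasmic reticulum and the unfolded protein response had a higher mean in 14 of 20 genes, all with overlap, and a median of 0.012. Leaving out wild-type library 2 turned that median to -0.034, and leaving out library 3 of the same group took it to 0.11. Splicing factors lay the other way, with a higher mean in 30 of 36 genes and a median of 0.047, but the groups of all 36 overlapped. The proteasome and splicing medians were no larger than the range of the lists' scores within wild type: the proteasome score ran from 0.018 to 0.067 and the splicing score from -0.15 to 0.024 over the wild-type libraries. Leaving out wild-type library 2 moved the proteasome median to -0.0059 and the splicing median to 0.016.

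Cholesterol synthesis had 19 of 22 genes with a lower mean, 1 without overlap. Its median of -0.089 was 0.0039 with the striatal score, -0.025 without wild-type library 1, and -0.15 when Tfap2a+/- library 2 was left out. Markers of myelin and oligodendrocytes, cells that make much cholesterol, had a lower mean in 13 of 13 cases, all with overlap. They summed to 5027 to 7442 CPM in wild type and 2334 to 6081 CPM in Tfap2a+/-, and their median of -0.47 ran from -0.80 without Tfap2a+/- library 1 to -0.18 without Tfap2a+/- library 3. Their part in the cholesterol values was not tested.

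Immediate early genes, which neurons switch on within minutes of activity, had a lower mean in 19 of 22 cases and a median of -0.48, with no member free of overlap. Jun was at 52.1, 82.3 and 61.4 against 40.4, 52.5 and 43.6 CPM. The median was -0.038 without wild-type library 3, whose score for the list was the highest of the 9 libraries. The same library had the highest score for the glucocorticoid-responsive list, where 13 of 14 genes had a lower mean (median -0.31, and -0.10 without that library). Sgk1, the kinase gene induced by glucocorticoids, was at 54.9, 66.9 and 105 against 56.4, 45.0 and 41.8 CPM.

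**Figure D4:**
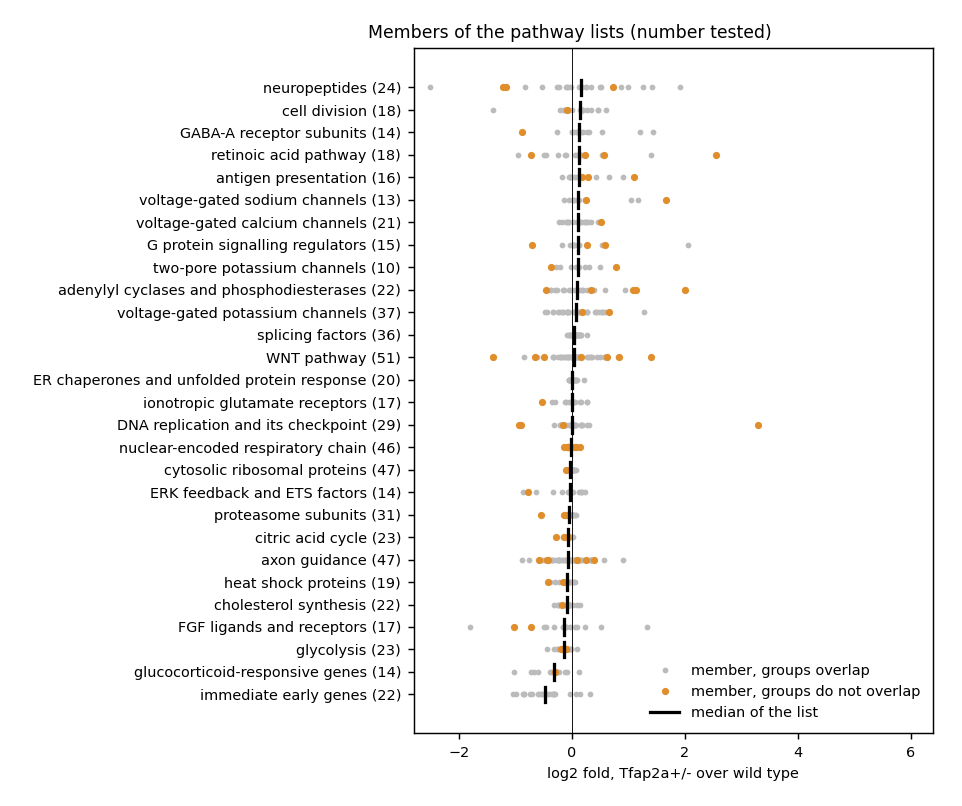
Each row is a pathway list with its number of tested genes in brackets, and each point a member's log2 fold of Tfap2a+/- over wild type. Orange points are members whose groups do not overlap, grey points members that overlap, and black bars the list medians. The medians run from -0.48 for immediate early genes to 0.16 for neuropeptides (-0.038 when wild-type library 3, and -0.012 when Tfap2a+/- library 1, is left out), and single members such as Clspn in the replication list lie far from their list's median.

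Antigen presentation genes had a higher mean in 11 of 16 cases, 3 without overlap (18.75%, against 9.17% over all genes). H2-Eb1, a class II chain gene of antigen-presenting cells, was at 1.22, 1.39 and 1.16 against 3.70, 2.45 and 1.93 CPM, but its log2 fold of 1.10 ± 0.46 (SE) became 0.16 with the striatal score (edgeR adjusted p = 0.999).

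Sex-chromosome genes were examined because all mice were male. Uty, which encodes a histone demethylase relative on the Y chromosome, was at 19.6, 18 and 19.1 CPM in wild type and 24.4, 26.5 and 28.5 CPM in Tfap2a+/- (log2 fold 0.48 ± 0.09 SE, edgeR adjusted p = 0.568, DESeq2 0.00286). Kdm5d was at 22.9, 21 and 22.9 against 27.1, 26.8 and 25.2 CPM. Eif2s3y was at 22.3, 10.1 and 24.1 against 30.5, 32.9 and 32.9 CPM, with wild-type library 2 far below the rest. All 3 were higher in each Tfap2a+/- library, while Ddx3y overlapped at 62.1, 64.7 and 69.2 against 74.9, 73.3 and 68.8 CPM. The score of the 4 Y-linked genes was -0.19, -0.52 and -0.13 in wild type and 0.13, 0.18 and 0.16 in Tfap2a+/-. In the 3 Tfap2b+/- libraries of the series it was 0.13, 0.079 and 0.15, so a score above wild type was not particular to Tfap2a+/-. The X-linked partner Eif2s3x lay below wild type in each library, at 28.3, 29.0 and 28.5 against 24.7, 24.9 and 27.4 CPM. It was the only 1 of the 4 tested X-linked partners without overlap, and their median log2 fold was -0.038.

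On chromosome 13, which carries Tfap2a, 76 of 676 tested genes were free of overlap (11.2%, against 9.17% overall). Within 10 Mb of Tfap2a 9 of 128 tested genes were higher and 6 lower without overlap (11.7%). The genes of smallest p there were Rnf182, a ubiquitin ligase gene, at 10.5, 25.5 and 22.2 against 10.1, 9.67 and 9.67 CPM, followed by Pxdc1 (log2 fold -0.59), Snrnp48 (0.28), Ly86 (-0.38) and A930002C04Rik (1.09). The last of these was at 0.42, 0.45 and 0.43 CPM in wild type and 0.89, 0.94 and 0.97 CPM in Tfap2a+/-, values that were even within each group but a few times the floor.

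Some differences split the Tfap2a+/- group itself. Eno1b (chromosome 18), which is a near copy of the enolase gene Eno1, was at 0.33, 0.49 and 0.12 CPM in wild type and at 21.3, 0.76 and 18.9 CPM in Tfap2a+/-. Eno1 was at 414, 475 and 380 against 298, 419 and 301 CPM, lower in the same libraries 1 and 3. Reads shared by near-identical copies are not counted, so counts of this pair are uncertain. A search made after these values were seen, for genes whose Tfap2a+/- libraries 1 and 3 both lay at least 2-fold beyond all other 7 libraries of the series on the same side, gave 3 genes. Beside Eno1b these were Gm4735 on chromosome 2, at 0.52, 0.53 and 0.31 against 10.6, 0.45 and 9.40 CPM, and Akr1e1 on chromosome 13, an aldo-keto reductase gene, at 22.0, 21.5 and 23.8 against 5.37, 22.8 and 3.92 CPM. Without Tfap2a+/- library 2, edgeR called these 3 genes and no others, with adjusted p = 0.0047 for Eno1b, 0.0036 for Gm4735 and 0.0052 for Akr1e1. The genes had been picked by the same values, with library 2 on the other side, so these calls are no separate support. Wdfy1, a gene known to differ between mouse strains, was lower in the same libraries, at 54.8, 57.4 and 55.9 against 37.6, 56.0 and 45.8 CPM. For these 4 genes Tfap2a+/- library 2 lay near or within the wild-type range. Nnt, the gene of a mitochondrial transhydrogenase that is intact in C57BL/6N and disrupted in C57BL/6J mice, lay near the floor in both groups, at 0.14, 0.19 and 0.39 against 0.17, 0.31 and 0.23 CPM. The wild-type libraries are titled B6N, which the labels do not spell out, so the substrain of the mice was not settled by these labels and counts.

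**Figure D5:**
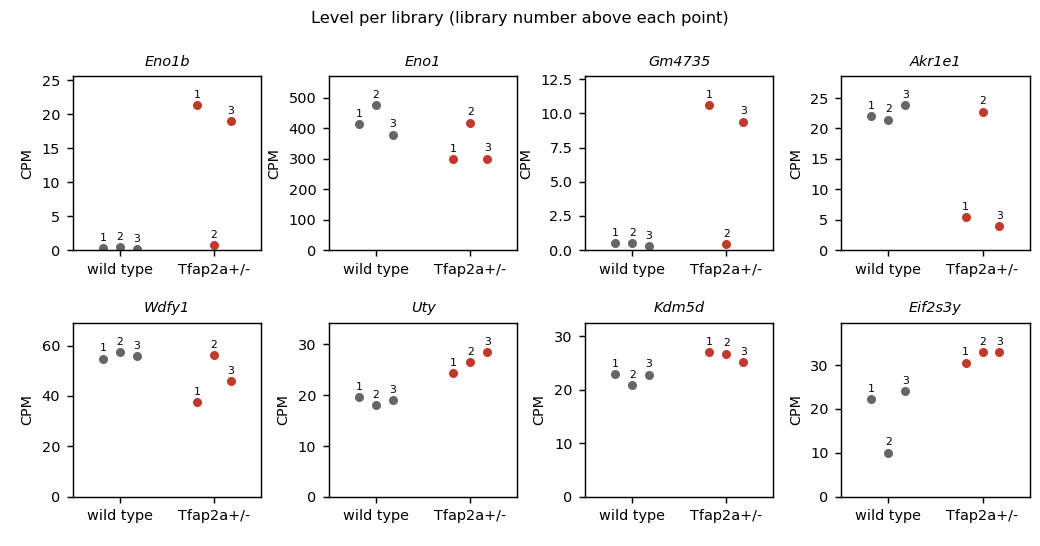
Each panel gives the level of 1 gene in CPM on an axis that starts at 0, with 1 point per library, the library number above it and the genotype on the x axis. For Eno1b, Gm4735 and Akr1e1, libraries 1 and 3 of Tfap2a+/- stand apart while library 2 lies with wild type. For Uty, Kdm5d and Eif2s3y all 3 Tfap2a+/- libraries lie above wild type.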

How the data were processed

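Per the labels' protocols, polyadenylated RNA was selected from 500 ng of total RNA, made into libraries in which dUTP keeps the strand, and sequenced as pairs of 75 bp reads. The authors deposited whole-number counts per gene in 3 strand settings for each library; per the submitters' processing notes, the tools were STAR 2.6.1d, cutadapt 2.4 and edgeR, on GRCm38.p6. The annotation release is not stated in the labels or headers; 54409 of 54446 identifiers matched GENCODE M21, of the same build. The reverse-strand counts were used. The 4 rows without a gene were left out; among them, reads outside genes took 7.30% to 8.96% of fragments in the 6 libraries compared. Reads at several positions are not counted, so genes with near-identical copies are uncertain.

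Genes were filtered with filterByExpr and tested in edgeR 4.0.16 (R 4.3.3; TMM, quasi-likelihood F-test, Benjamini-Hochberg adjustment), with group as the model's single factor and the spread estimated from all 9 libraries. CPM are TMM-scaled. Groups do not overlap where every library of one lies above every library of the other. Exact permutation of 3 against 3 libraries cannot go below p = 0.1, so no such test is given. The method was tested on simulated data. Replicate libraries differed by more than sampling noise in each pair (chi-square per degree of freedom at least 20.6).

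Named genes are the AP-2 factors and partners, the 30 genes of smallest p without overlap, the 12 of largest gap in each direction (with 0.5 CPM added), up to 4 members of smallest p per pathway list, the sex-chromosome and substrain genes, the 5 of smallest p near Tfap2a, and up to 3 per marker list. Gapdh, Pgk1, Pkm, Pde1a, Gm4735, Akr1e1, Zfp953 and Zfp874a were chosen after their values were seen. The members and lists were chosen with earlier results of these data known. Alternatives were DESeq2 1.42.0, its size factors, other filters, unstranded counts, a robust fit, the 6 libraries alone, the replicate number as a block, the striatal score as a term, and leaving out each library. Leaving out the 3 libraries with high choroid plexus or hindbrain markers was added after the data were seen. A gene among the 30 of smallest p without overlap is not reported here.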

Additional observations from a re-analysis of the deposited data

How the results depend on the processing

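The count of genes past the adjusted p of 0.05 was 0 in edgeR, 2 with no filter on low counts and 30 by DESeq2, and it ran from 0 to 3 over the fits that left out 1 library. The 3 came without Tfap2a+/- library 2, and the genes are those given in the report. The count at an unadjusted p under 0.05 was 666, 1052 with no filter (of 32582 tested) and 1577 with the striatal score as a term. The 1591 genes without overlap became 2889 to 3858 when 1 library was left out and 5729 without wild-type library 2 and Tfap2a+/- library 1 (the added choice of 3 marker-high libraries), since fewer libraries overlap less often by construction. Of the 95 genes named, 90 kept the sign of their fold in each alternative fit; many were chosen for groups without overlap, which largely fixes the sign when 1 library is left out. Reversed folds were those of Tfap2a (1.17 with the striatal score, from -0.49), Tfap2b (-1.10, but 1.14 with the score, and from -1.62 to 0.93 over the fits that left out 1 library, the latter without wild-type library 3), Rgs9 (-0.39) and Rarb (-0.14), both with the score, and Nnt (-0.039, but 0.042 with unstranded counts, 0.42 with the score and from -0.28 to 0.49 over the fits that left out 1 library); the cause was not tested. Deviations of same-numbered libraries correlated at -0.35, 0.02 and 0.15, and those of libraries with unlike numbers at -0.39 to 0.37. The replicate numbers thus showed no sign of pairing, but 3 such correlations cannot exclude it. With the replicate block edgeR called 0 genes, and 627 lay at an unadjusted p under 0.05. Over 38 lists and 16 alternatives, 69 of 608 list medians moved by more than the SD of the wild-type scores, 19 of them with the striatal score. Depth limits Tfap2a, Irx5, Ptpn7 and the genes under about 1 CPM, where 3 counts come to 0.105 to 0.137 CPM.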

Other observations

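Transcripts that the annotation does not class as protein coding lay more often on the higher side. Of 512 tested transcripts listed as still to be experimentally tested (biotype TEC), 70.1% had a higher mean in Tfap2a+/-, with 54 higher and 12 lower without overlap (12.9%, against 9.17% of all genes). The 624 long intergenic non-coding RNAs had a higher mean in 59.9% of cases, and the 14756 protein-coding genes in 46.1%. Reads outside genes took 7.30% to 8.86% of fragments in wild type and 8.07% to 8.96% in Tfap2a+/-, and their part in this was not tested.

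In 2 Mb bins of gene starts with at least 15 tested genes (422 bins), the median share of genes without overlap was 8.33%. Of the 6 bins with the highest shares 2 lay on chromosome 13, which had 15 of the bins. The bin from 62000001 to 64000000 had 5 of 16 genes without overlap, all higher (31.2%), and the bin from 66000001 to 68000000 had 9 of 34, 4 higher and 5 lower (26.5%). The latter holds a cluster of zinc finger genes. Zfp874a was at 17.4, 15.8 and 15.8 CPM in wild type and 11.9, 12 and 12.4 CPM in Tfap2a+/-, and Zfp953 at 1.41, 1.88 and 1.54 against 1.06, 0.76 and 0.78 CPM. F630042J09Rik, 1 of the 30 genes of smallest p, lies in the same bin, at 0.94, 0.83 and 0.85 against 2.23, 4.37 and 2.72 CPM. Elsewhere on chromosome 13, AK157302 was at 0.28, 0.11 and 0.039 against 0.82, 1.25 and 0.88 CPM, and Gm34672 had counts in 1 wild-type library (0.24 CPM) and was at 0.99, 1.2 and 1.66 CPM in Tfap2a+/-. Fgf10 and Agtr1a, described above, also lie on chromosome 13. Both are among the 30 genes of smallest p, as is AK157302. Agtr1a starts at -10.4 Mb from Tfap2a, just outside the 10 Mb window. These bins were examined after the values were seen, and their shares were not tested.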
